A study of Mus musculus with 22 samples.

Results

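The genes described here are 37 genes of the NRF2 pathway, of glutathione metabolism and of antioxidant defence, followed across 22 arrays of MEFs, mouse fibroblasts cultured from embryos without immortalisation. They are a list of gene names, grouped here by role, and no measured value enters the rule, although the list was drawn up with earlier results of these data known. Each gene was read at 1 Affymetrix probe set, the one with the highest mean over all arrays among those assigned to that gene alone. Of the 37 genes, 35 had such a probe set, out of 18193 genes measured in this way, and 53 further genes of the same pathways are given as a group. Prdx1, a peroxiredoxin, and G6pdx, the first enzyme of the pentose phosphate pathway, had no probe set of their own and carry no value.

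The arrays came from 4 groups, and RNA was taken 7 days after infection with an adenovirus. Double MEFs (7 arrays) received Cre recombinase, which switched on a mutant oncogene and deleted the floxed gene of the transcription factor Wt1. Oncogene MEFs (5 arrays) received Cre, which switched on the oncogene alone, and Wt1-null MEFs (5 arrays) carried floxed Wt1 alleles (Wt1f/f) that Cre deleted. Control MEFs (5 arrays) were labelled wild type and received the same kind of virus with GFP in place of Cre. Cre virus and genotype therefore cannot be told apart in any comparison with the control or in the interaction described below. The labels give neither strain nor age and do not say whether arrays of a group came from separate embryos or cultures.

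NRF2, encoded by Nfe2l2, is a transcription factor that the adaptor KEAP1 marks for degradation. When electrophiles or oxidants modify KEAP1, NRF2 accumulates and binds antioxidant response elements at genes that supply glutathione, regenerate NADPH and detoxify reactive compounds. Glutathione is built from cysteine, which enters the cell as cystine, and its supply is also under control of the amino acid stress factor ATF4. Cultured fibroblasts depend on these systems to withstand the oxygen of culture.

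Values are deposited RMA log2 values, so a difference of 1 is a factor of 2 and levels of different genes are not compared. A gene is called changed when limma's adjusted p over all 18193 genes was below 0.05. All 9 fibroblast markers measured had means of 11.48 to 14.83. Of the markers of other cell types, 2 of 6 macrophage, 3 of 5 endothelial, 1 of 6 epithelial, 3 of 5 skeletal muscle, 1 of 4 neuronal, 2 of 2 erythroid and 2 of 4 hepatocyte genes had means below the median of all probe sets (6.29), among them Ptprc, Pecam1, Cdh1, Myog, Snap25, Hba-a1 and Alb. The highest mean of a neuronal marker was 10.73 and of an epithelial marker 8.79. Krt7, an epithelial keratin, fell by 2.87 in double and 2.64 in oncogene MEFs against the control (limma adjusted p = 0.00406 and 0.02205), and the macrophage marker Cd68 and the endothelial marker Tek rose by 0.80 and 1.29 in double MEFs (adjusted p = 0.03053 and 0.04482). These lists were mixed: in double MEFs 4 of 6 epithelial, 3 of 6 macrophage and 2 of 5 endothelial markers were higher than in the control. Krt18, another epithelial keratin, was 1.64 higher there and not called. Of the fibroblast markers, Pdgfra was called higher in double and oncogene MEFs (by 1.78 and 1.97) and Fn1 in double MEFs. That list was mixed too: 5 of 9 were higher and 4 lower than the control in double MEFs. In oncogene MEFs 7 were higher and 2 lower. Postn averaged 11.61 in double and 13.12 in control MEFs and was not called. The part of other cell types in the results was not tested. Wt1 averaged 4.45 ± 0.19 in double, 4.59 ± 0.06 in oncogene, 4.47 ± 0.15 in Wt1-null and 4.38 ± 0.10 in control MEFs (SD), all below that median, so its probe set gave no check of the deletion. In bulk RNA, fewer cells of a type and less RNA per cell cannot be told apart.

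Some arrays stood apart from their groups or lay unusually close to another array. Double replicate 2 and Wt1-null replicate 2 differed over all probe sets with an SD of only 0.152, and at 28 of the 35 genes by no more than 0.1. Wt1-null replicates 3 and 4 differed with an SD of 0.161, and the next closest pair, 2 control arrays, with an SD of 0.242. Double replicate 4 and oncogene replicate 4 had the lowest mean correlations with the other arrays, 0.940 and 0.963, and both were highest of all 22 arrays for Keap1, Abcc1, Pgd and Tkt and lowest for Txnrd1, Gpx8 and Sod2. The 3'-to-5' difference of the pyruvate carboxylase control probes, a sign of RNA quality, was highest in these 2 arrays, at 2.97 and 2.73. It reached 2.05 in Wt1-null arrays and 2.25 in control arrays. For the Gapdh and beta-actin control probes the difference ran from -0.19 to 0.2 and from 0.05 to 0.57 over all arrays. The part of RNA quality in the results was not tested. Xist, an RNA made in female cells, ran from 6.18 through a median of 10.66 to 11.89 in double MEFs. In oncogene MEFs it ran from 5.29 through 6.01 to 6.42. It ran from 5.87 to 11.48 in Wt1-null MEFs and from 5.89 to 10.48 in control MEFs.

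Promoter sequence is shown for 4 of the genes whose levels carry the comparisons below, from RefSeq windows of mouse assembly GRCm38.p6 that run from 250 bases before to 50 bases after the annotated start. The core letters of the antioxidant response element, TGACNNNGC or its reverse complement GCNNNGTCA, were searched on both strands. They occurred in 10 of the 29 member genes with a window (34.48%) and in 16.15% of the 14452 measured genes with one. The 10 were Gclm, Gsta3, Gstm5, Me1, Mgst1, Nfe2l2, Pgd, Sod1, Srxn1 and Txnrd1. The core of the ATF4 element, TGATGNAA or TTNCATCA, occurred in 1 of the 29 (3.45%), Slc7a11, and in 3.24% of the measured genes. A match describes these letters in the window and does not show binding. The lines below give chr3:50443637-50443695 on the minus strand for Slc7a11, chr3:122245407-122245447 on the plus strand for Gclm, chr6:138140455-138140495 on the plus strand for Mgst1 and chr2:75704879-75704913 on the minus strand for Nfe2l2, 5' to 3' along each gene's strand, with the cores in capitals.
Slc7a11: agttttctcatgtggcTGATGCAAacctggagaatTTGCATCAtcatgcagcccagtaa
Gclm: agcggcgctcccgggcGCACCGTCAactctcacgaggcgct
Mgst1: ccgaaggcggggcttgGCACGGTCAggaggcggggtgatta
Nfe2l2: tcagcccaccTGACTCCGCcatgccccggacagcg
The Slc7a11 stretch holds both orientations of the ATF4 core, beginning 66 and 47 bases before the start with 11 bases between them. No member's window held both kinds of core.

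Compared with control MEFs, few of the genes changed, and all the called changes were falls, in 3 genes of glutathione supply, an endoplasmic reticulum peroxidase and the extracellular superoxide dismutase. In double MEFs 4 of 35 fell and 0 rose, namely Slc7a11, Gsr, Gclm and Gpx7, where 5.93% of all genes were called and 2.45% were called lower. In oncogene MEFs 3 of 35 fell and 0 rose, namely Slc7a11, Gsr and Sod3, where 2.04% of all genes were called and 0.72% were called lower. At an unadjusted limma p below 0.05, 11 of 35 differed in double MEFs (6 higher and 5 lower). Of all genes 20.1% did (10.4% higher and 9.69% lower). In oncogene MEFs 9 of 35 did (3 higher and 6 lower), beside 15% of all genes (7.55% higher and 7.49% lower). In Wt1-null MEFs limma called 0 of 35, with 7 at an unadjusted p below 0.05 (1 higher and 6 lower), where 0.104% of all genes were called and 12.7% had such an unadjusted p (4.2% higher and 8.5% lower). The median change over the 35 genes was -0.06 in double, -0.09 in oncogene and -0.29 in Wt1-null MEFs, beside -0.02, -0.03 and -0.05 over all genes. These comparisons share the control arrays, so their medians are not independent of each other.

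**Figure D1:**
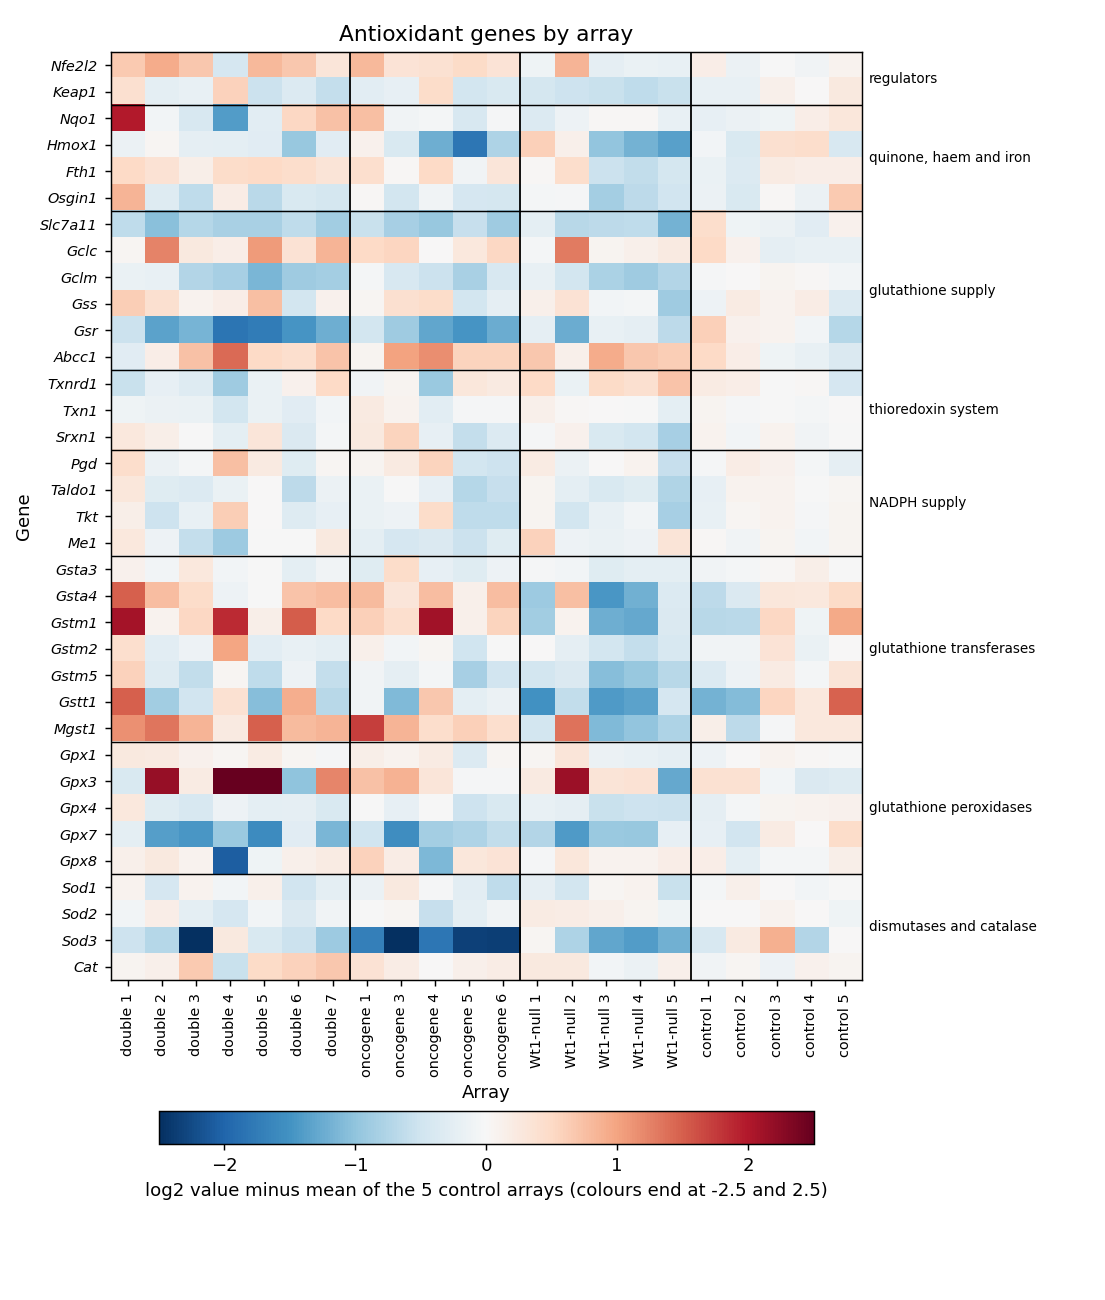
Log2 level of each of the 35 genes on each of the 22 arrays, relative to that gene's control mean, with genes in rows by role and arrays in columns ordered double, oncogene, Wt1-null and control. The rows of Slc7a11, Gsr, Gclm and Gpx7 lie below the control mean on all 7 double arrays, and double replicate 2 and Wt1-null replicate 2 show nearly the same column.

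Among the 6 genes of glutathione supply, 3 fell in double MEFs and 2 in oncogene MEFs, while Gclc, Gss and Abcc1 were not called in any comparison. Slc7a11 encodes the transport subunit of the cystine and glutamate exchanger, which brings in the cysteine for glutathione. Its level ran from 4.83 through a median of 5.07 to 5.23 in double MEFs. It was 5.31, 5.04, 4.91, 5.30 and 4.97 in oncogene MEFs, 5.62, 5.18, 5.21, 5.24 and 4.69 in Wt1-null MEFs, and 6.31, 5.76, 5.72, 5.58 and 5.98 in control MEFs. All double and all oncogene arrays lay below every control array, as did every Wt1-null array except replicate 1. The level fell by 0.79 ± 0.14 on the log2 scale in double MEFs (SE, limma adjusted p = 0.002295) and by 0.76 ± 0.15 in oncogene MEFs (adjusted p = 0.01054). In Wt1-null MEFs the change was -0.68 ± 0.15 (adjusted p = 0.09296), and it was called when Wt1-null replicate 1 (-0.79, adjusted p = 0.0225) or double replicate 1 (adjusted p = 0.04268) was left out. The gene is dim, with a mean of 5.29 at the 32.7th percentile of probe sets, where RMA compresses differences, and a second probe set gave -0.35 in double, -0.31 in oncogene and -0.40 in Wt1-null MEFs, none called. Averaged over both probe sets, the oncogene call was lost (adjusted p = 0.06674).

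Gsr, glutathione reductase, returns oxidised glutathione to its reduced form with NADPH. Its level ran from 8.03 through 8.51 to 9.30 in double MEFs. It was 9.38, 8.96, 8.55, 8.36 and 8.61 in oncogene MEFs, 9.62, 8.61, 9.65, 9.62 and 9.19 in Wt1-null MEFs, and 10.45, 9.95, 9.93, 9.77 and 9.13 in control MEFs. The double group lay lowest, with 6 of its 7 arrays below every control array, and control replicate 5 reached down into the double and oncogene ranges. The level fell by 1.33 ± 0.25 in double MEFs (2.51-fold lower, limma adjusted p = 0.003179) and by 1.07 ± 0.26 in oncogene MEFs (2.1-fold lower, adjusted p = 0.03789). The change in Wt1-null MEFs was -0.51 ± 0.26 (adjusted p = 0.4269). A second probe set gave -1.39 in double MEFs (adjusted p = 0.02172), -1.02 in oncogene MEFs (adjusted p = 0.1873) and -0.60 in Wt1-null MEFs. The call in oncogene MEFs was lost in 8 of the 22 fits that left out 1 array, those without oncogene replicate 3, 4, 5 or 6 or control replicate 1, 2, 3 or 4, and with the probe sets averaged (adjusted p = 0.07155).

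Gclm is the modifier subunit of glutamate cysteine ligase, the rate-limiting enzyme of glutathione synthesis, and Gclc is its catalytic subunit. The Gclm level ran from 9.87 through 10.18 to 10.85 in double MEFs. It was 10.96, 10.60, 10.47, 10.20 and 10.61 in oncogene MEFs, 10.82, 10.56, 10.23, 10.11 and 10.28 in Wt1-null MEFs, and 10.98, 11.01, 11.08, 11.04 and 10.94 in control MEFs. The control arrays were tightly grouped (SD 0.06), and every double and every Wt1-null array lay below all of them. Gclm fell by 0.69 ± 0.16 in double MEFs (limma adjusted p = 0.01619), and the changes in oncogene and Wt1-null MEFs were -0.44 ± 0.18 (adjusted p = 0.2273) and -0.61 ± 0.18 (adjusted p = 0.1944). A second, dimmer probe set gave -0.30, -0.23 and 0.22 for double, oncogene and Wt1-null MEFs, none called. Averaged over both, the double call was lost (adjusted p = 0.1218).

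The other genes of glutathione supply lay above the control in most groups and none was called. The change of Gclc was 0.57 ± 0.23 in double, 0.37 ± 0.25 in oncogene and 0.34 ± 0.25 in Wt1-null MEFs, with limma adjusted p-values of 0.1644, 0.5363 and 0.589. At the brightest probe set of each gene, the means of the ligase's catalytic and modifier subunits thus lay on opposite sides of the control in all 3 groups. This difference was not tested. With the second Gclm probe set it held in double and oncogene MEFs but not in Wt1-null MEFs. Abcc1, which exports glutathione and its conjugates, was at 0.53, 0.67 and 0.60 above the control, with adjusted p-values of 0.2108, 0.1936 and 0.3418. Gss, glutathione synthetase, differed from the control by -0.10 to 0.24.

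**Figure D2:**
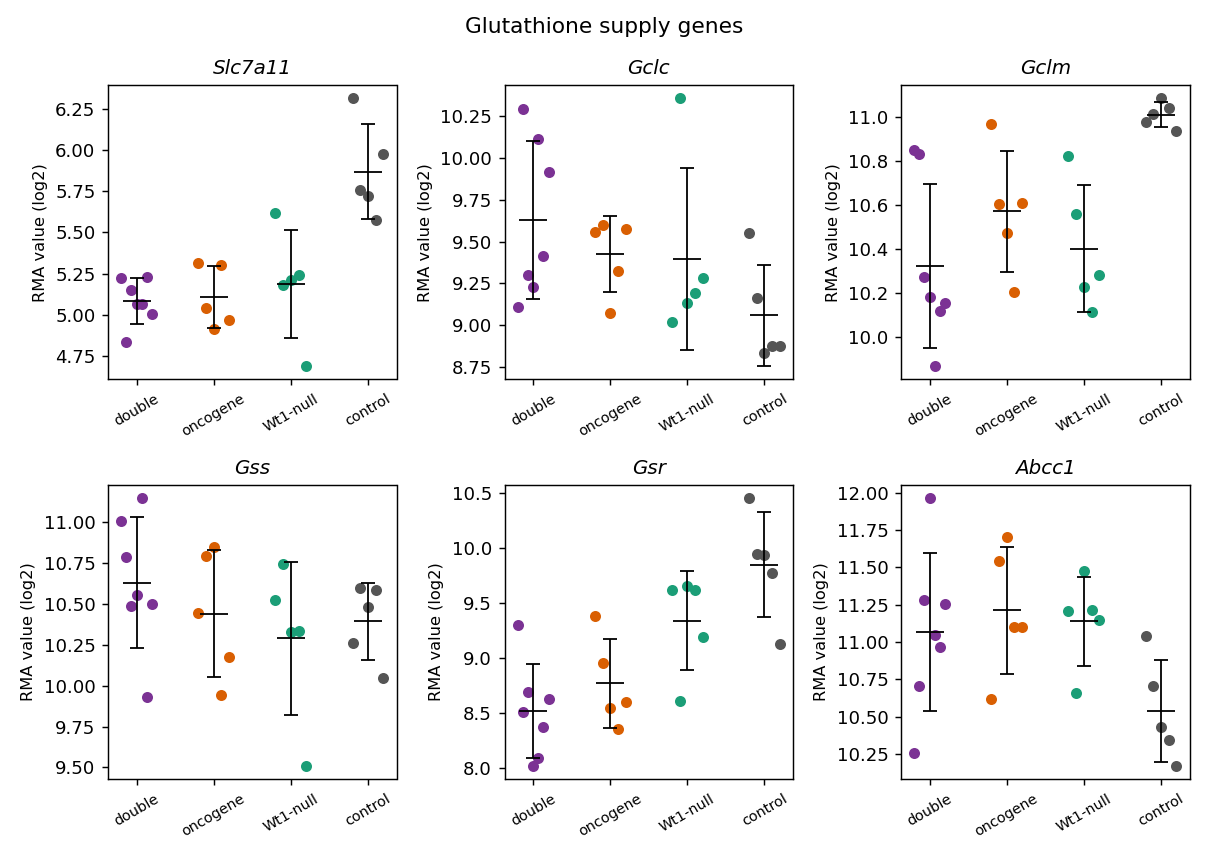
Log2 level on each array of the genes of glutathione supply, with groups in the order double, oncogene, Wt1-null and control, points for arrays and bars for mean ± SD. Slc7a11 lies between 4.83 and 5.23 on the double arrays, below all 5 control arrays, and Gclm lies below the tight control values of 10.94 to 11.08 on every double and every Wt1-null array.

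Among the 5 glutathione peroxidases, which reduce peroxides, Gpx7 was called, in double MEFs. GPX7 resides in the endoplasmic reticulum, where it takes part in oxidative protein folding. Its level ran from 9.98 through 10.40 to 11.31 in double MEFs. It was 11.06, 9.99, 10.70, 10.78 and 10.93 in oncogene MEFs, 10.83, 10.13, 10.62, 10.61 and 11.34 in Wt1-null MEFs, and 11.36, 11.07, 11.77, 11.57 and 12.01 in control MEFs. All 7 double arrays lay below the control mean and 5 of them below every control array, and the oncogene arrays lay below every control array. Gpx7 fell by 1.001 ± 0.255 in double MEFs (limma adjusted p = 0.02248), and the changes in oncogene and Wt1-null MEFs were -0.86 ± 0.28 (adjusted p = 0.1156) and -0.85 ± 0.28 (adjusted p = 0.2359). With 1 probe set the gene has no second reading on the array. The call was lost without double replicate 5 or control replicate 3, 4 or 5, with the accession set as a fixed block (adjusted p = 0.0514) and within 1 accession set (adjusted p = 0.05057).

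Gpx3, the secreted plasma peroxidase, was the most scattered gene of this group. Its level was 9.17, 11.72, 9.75, 12.47, 12.10, 8.54 and 10.77 on double replicates 1 to 7. It was 10.29, 10.42, 9.85, 9.52 and 9.52 in oncogene MEFs, 9.78, 11.70, 9.88, 9.91 and 8.27 in Wt1-null MEFs, and 9.92, 9.93, 9.49, 9.20 and 9.22 in control MEFs. The double arrays lay on both sides of the controls, and the mean difference of 1.09 ± 0.60 was not called (limma adjusted p = 0.3224). Gpx1, the main cytosolic peroxidase, and Gpx4, which reduces lipid peroxides in membranes, differed from the control by -0.40 to 0.12 over the 3 groups, with no call. Gpx8, another endoplasmic reticulum peroxidase, differed by -0.20 to 0.12, with single low values of 10.41 in double replicate 4 and 11.35 in oncogene replicate 4.

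Of the superoxide dismutases and catalase, Sod3 was called, in oncogene MEFs. SOD3 is the extracellular superoxide dismutase. Its level ran from 6.50 through 9.39 to 10.19 in double MEFs. It was 8.24, 7.40, 8.12, 7.60 and 7.59 in oncogene MEFs, 9.99, 9.17, 8.64, 8.54 and 8.73 in Wt1-null MEFs, and 9.54, 10.15, 10.83, 9.21 and 9.95 in control MEFs. The oncogene and control arrays did not overlap, while double replicate 3, at 6.50, lay far below the other double arrays. Sod3 fell by 2.15 ± 0.48 in oncogene MEFs (4.43-fold lower, limma adjusted p = 0.02289), and a second probe set gave -1.73 (adjusted p = 0.02113). The call was lost with a replicate block (adjusted p = 0.06447), with an Xist covariate, within 1 accession set, and without oncogene replicate 3, 5 or 6 or control replicate 2 or 3. The changes in double and Wt1-null MEFs were -0.89 ± 0.45 (adjusted p = 0.2742) and -0.93 ± 0.48 (adjusted p = 0.4273). Sod1, the cytosolic enzyme, Sod2, the mitochondrial enzyme, and catalase (Cat) differed from the control by -0.22 to 0.29 over the 3 groups, with no call.

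**Figure D3:**
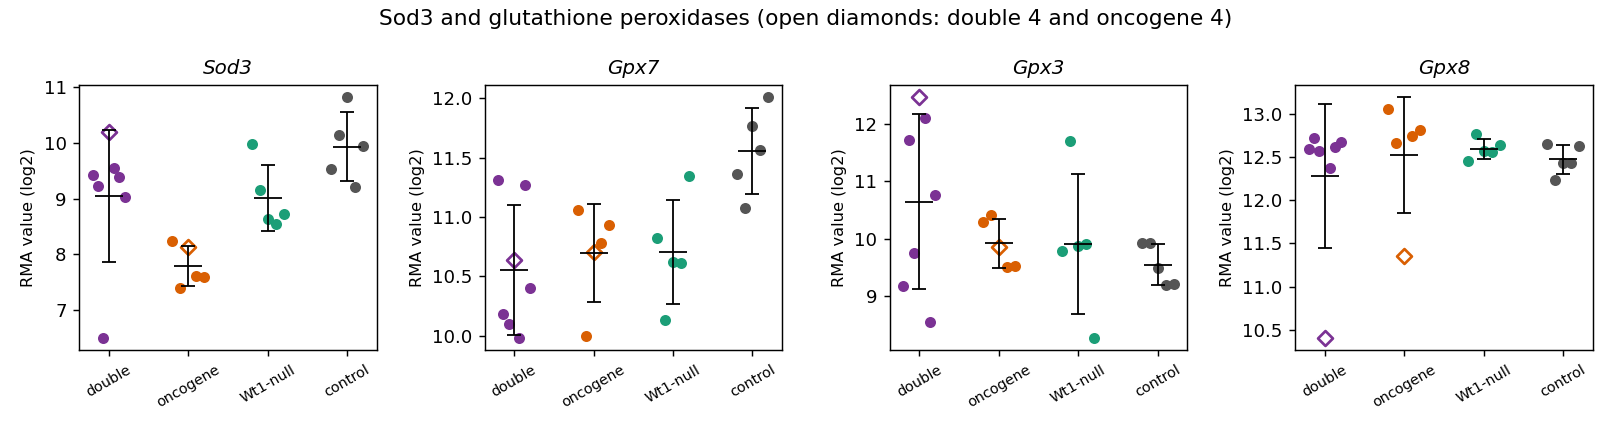
Log2 level on each array of Sod3, Gpx7, Gpx3 and Gpx8, with groups in the order double, oncogene, Wt1-null and control, points for arrays, bars for mean ± SD and open diamonds for double replicate 4 and oncogene replicate 4. The 5 oncogene arrays lie between 7.40 and 8.24 for Sod3, below all control arrays, and both diamonds are the lowest points for Gpx8.

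The regulators were not called in any comparison. Nfe2l2 was at 11.79, 12.07, 11.81, 10.72, 11.97, 11.83 and 11.45 on double replicates 1 to 7. It was at 11.96, 11.49, 11.52, 11.63 and 11.48 in oncogene MEFs, 11.04, 11.997, 10.91, 10.98 and 10.96 in Wt1-null MEFs, and 11.31, 10.99, 11.13, 11.06 and 11.24 in control MEFs. Every oncogene array, and every double array except replicate 4, lay above all control arrays. The change was 0.52 ± 0.20 in double MEFs (limma adjusted p = 0.1435), 0.47 ± 0.22 in oncogene MEFs (adjusted p = 0.3143) and 0.03 ± 0.22 in Wt1-null MEFs (adjusted p = 0.9644). These are levels of mRNA, whereas KEAP1 acts on the NRF2 protein, which the arrays do not measure. The difference of Keap1 from the control was -0.13 in double, -0.17 in oncogene and -0.54 in Wt1-null MEFs (adjusted p = 0.7488, 0.7483 and 0.2914), with every Wt1-null array (9.32 to 9.52) below every control array (9.76 to 10.19).

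Hmox1, haem oxygenase, which degrades haem, ran from 9.39 through 10.09 to 10.38 in double MEFs. It was 10.46, 9.97, 9.12, 8.54 and 9.57 in oncogene MEFs, 10.95, 10.46, 9.35, 9.16 and 8.99 in Wt1-null MEFs, and 10.28, 9.97, 10.74, 10.79 and 9.93 in control MEFs. All 4 groups overlapped, and the change of -0.81 ± 0.36 in oncogene MEFs was not called (limma adjusted p = 0.2869). Nqo1, a quinone reductase often used as a readout of NRF2, averaged 8.79 ± 1.06 in double MEFs, 8.67 ± 0.43 in oncogene MEFs, 8.52 ± 0.15 in Wt1-null MEFs and 8.64 ± 0.22 in control MEFs (SD). The double arrays spread for Nqo1 from 7.24 in replicate 4 to 10.62 in replicate 1, on both sides of the controls. Osgin1, a stress-induced growth inhibitor, was not called either.

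The thioredoxin genes (Txnrd1, Txn1, Srxn1), which reduce oxidised proteins and peroxiredoxins, and the NADPH-supplying enzymes (Pgd, Taldo1, Tkt, Me1) gave no call in any comparison. Their differences from the control lay between -0.37 and 0.38 in every group. Txn1, thioredoxin, ran from 13.41 to 13.81 in double MEFs, below the control range of 13.82 to 13.94, a difference of -0.19 ± 0.09 (limma adjusted p = 0.2091). Me1, the cytosolic malic enzyme, ran from 10.81 to 11.09 in oncogene MEFs, below the control range of 11.25 to 11.40, a difference of -0.37 ± 0.19 (adjusted p = 0.3616). Groups failed to overlap at 3 of the 35 genes between double and control MEFs (4.28% of all genes), at 6 between oncogene and control MEFs (5.94%) and at 3 between Wt1-null and control MEFs (5.68%).

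The glutathione transferases, which couple glutathione to reactive compounds, had the lowest median difference from the control of the 8 role groups in Wt1-null MEFs, and none was called there. All 7 (Gsta3, Gsta4, Gstm1, Gstm2, Gstm5, Gstt1 and Mgst1) lay below the control mean in Wt1-null MEFs, with a median difference of -0.63, while 4 of 7 in double MEFs and 3 of 7 in oncogene MEFs lay above it. The lowest was Gstt1, at 7.04, 7.92, 7.13, 7.21 and 8.12 in Wt1-null MEFs and 7.36, 7.47, 9.09, 8.80 and 10.03 in control MEFs, a difference of -1.06 ± 0.52 (limma adjusted p = 0.3974). Gstm5 was the one transferase whose Wt1-null arrays (10.38 to 11.09) all lay below the control arrays (11.09 to 11.76, the touching values differing in the third decimal), a difference of -0.70 ± 0.22 (adjusted p = 0.2201). Mgst1 was 0.96 ± 0.34 above the control in double MEFs (limma adjusted p = 0.1054). In oncogene MEFs Mgst1 was 0.80 ± 0.37 above it (adjusted p = 0.3066), with all 5 arrays above every control array. Gstm1 differed from the control by 0.96 ± 0.41 in double (adjusted p = 0.1867), 0.76 in oncogene and -0.73 in Wt1-null MEFs, none called. Only 1 of the 5 control arrays shared a run of accession numbers with Wt1-null arrays. Run and group can therefore hardly be told apart between Wt1-null and control MEFs.

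The comparison of double with Wt1-null MEFs asks what the oncogene adds to cells without Wt1. With all arrays limma called 0 of 35 genes, with 11 at an unadjusted p below 0.05 (8 higher and 3 lower), where 0.0824% of all genes were called and 14.8% had such an unadjusted p (9.62% higher and 5.2% lower). The transferases stood highest in this difference: all 7 were higher in double MEFs, 5 of them at an unadjusted p below 0.05, with a median of 1.02 beside 0.21 for all 35 genes and 0.04 for all genes. Gstm1, a cytosolic transferase, ran from 9.57 through 9.98 to 11.56 in double MEFs, against 8.60, 9.55, 8.25, 8.19 and 9.10 in Wt1-null MEFs, the 1 gene of the 35 without overlap here (0.923% of all genes). Mgst1, a membrane-bound transferase, ran from 11.58 through 12.20 to 12.85, against 10.90, 12.71, 10.24, 10.36 and 10.58. Gsta4, which conjugates products of lipid peroxidation, ran from 9.12 through 9.94 to 10.74, against 8.33, 9.98, 7.79, 8.04 and 8.90. In each of these 3 genes Wt1-null replicate 2 was the highest Wt1-null array, within the double range for Mgst1 and Gsta4 and just under it for Gstm1.

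The differences were 1.69 ± 0.41 for Gstm1 (limma adjusted p = 0.08568), 1.35 ± 0.34 for Mgst1 (adjusted p = 0.08851) and 1.21 ± 0.32 for Gsta4 (adjusted p = 0.1038). For Gstt1 the difference was 1.02 ± 0.48 (adjusted p = 0.324). Fth1, the ferritin heavy chain that stores iron, is described because of its values. It ran from 14.32 through 14.63 to 14.69 in double MEFs, against 14.21, 14.62, 13.65, 13.58 and 13.74 in Wt1-null MEFs, a difference of 0.61 ± 0.16 (adjusted p = 0.09428). Gsr again lay lower in double MEFs, by -0.82 ± 0.24 (adjusted p = 0.1379). Family members of Gstm1 are similar in sequence, and its probe set may also bind related transcripts. Its other 3 probe sets gave differences of 0.86, 1.07 and 1.72, and a dim second probe set of Mgst1 gave 0.07.

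Wt1-null replicate 2, the array nearly identical to double replicate 2, moved these differences across the threshold. Without it limma called 6 of 35 genes, 5 higher and 1 lower, where 5.08% of all genes were called. Mgst1 was then 1.79 ± 0.25 higher in double MEFs (adjusted p = 0.0006215), Fth1 0.78 higher (adjusted p = 0.003119), Gsta4 1.56 higher (adjusted p = 0.003167) and Gstm1 1.90 higher (adjusted p = 0.01467). Nfe2l2 was 0.69 higher (adjusted p = 0.03086) and Gsr was at -1.002 (adjusted p = 0.0204). With the near-identical Wt1-null replicates 3 and 4 also averaged to 1 array, 3 genes were called, Fth1, Gsta4 and Mgst1, where 1.95% of all genes were. Whether Wt1-null replicate 2 carries its label's cells was not tested, and the Wt1-null and double arrays lie in separate runs of accession numbers, so that run and group cannot be told apart here.

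**Figure D4:**
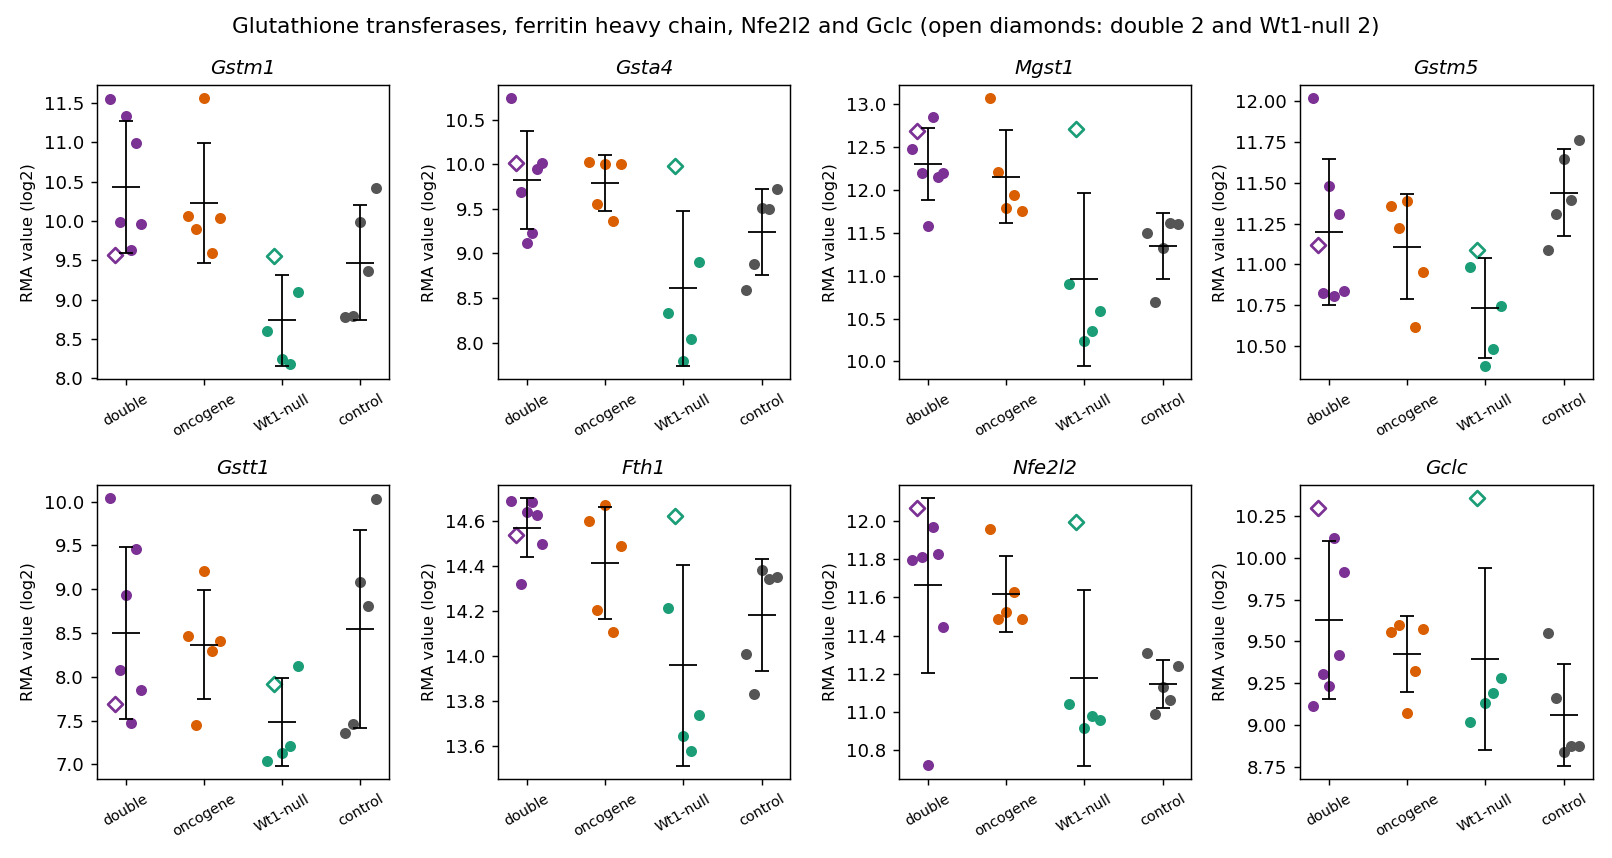
Log2 level on each array of 5 transferases, Fth1, Nfe2l2 and Gclc, with groups in the order double, oncogene, Wt1-null and control, points for arrays, bars for mean ± SD and open diamonds for double replicate 2 and Wt1-null replicate 2. For Mgst1 the diamond of the Wt1-null group, at 12.71, lies among the double arrays, and the other 4 Wt1-null arrays, at 10.24 to 10.90, lie below all of them.

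Double and oncogene MEFs differ in whether Wt1 was deleted. They also differed in Xist level (medians of 10.66 and 6.01), so embryo sex and Wt1 deletion cannot be fully told apart here. Limma called 0 of 35 genes between double and oncogene MEFs, with 2 at an unadjusted p below 0.05, where 0% of all genes were called and 3.09% had such an unadjusted p. Of the 35 genes 27 were higher and 8 lower in double MEFs, with a median of 0.09 beside 0.01 for all genes, and 53.2% of all genes were higher. The largest difference was in Sod3, 1.26 ± 0.45 higher in double MEFs (unadjusted p = 0.01082, limma adjusted p = 0.9997), with 6 of 7 double arrays above the oncogene mean. Gpx3 differed by 0.73 ± 0.60, Hmox1 by 0.51 ± 0.33, Gsr by -0.253 ± 0.245 and Txn1 by -0.19 ± 0.09, each with an adjusted p of 0.9997. No member's groups were free of overlap, as was the case for 0.0879% of all genes. For Slc7a11 the difference was -0.03 ± 0.14, with a 95% interval of -0.32 to 0.26.

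The interaction sets the effect of both changes together against the sum of the effects of each. All these effects are taken against the GFP control. An effect of the Cre virus shared by the Cre groups therefore enters the interaction with its sign reversed and cannot be told apart from it. Limma called 0 of 35 genes, with 7 at an unadjusted p below 0.05 (6 higher and 1 lower), where 0.011% of all genes were called and 8.55% had such an unadjusted p (5.75% higher and 2.8% lower). Its median was 0.37 over the 35 genes and 0.06 over all genes, and 29 of the 35 were above 0, as were 59.7% of all genes. Sod3 had the highest value, 2.18 ± 0.66 (adjusted p = 0.5795), with means of 9.05 in double, 7.79 in oncogene, 9.01 in Wt1-null and 9.94 in control MEFs. Without double replicate 3 the value was 2.61 ± 0.42 (adjusted p = 0.02746), the 1 interaction called among the members in the fits that left out an array. Gstt1 was at 1.20 ± 0.70, Hmox1 at 1.07 ± 0.49 and Gstm1 at 0.93 ± 0.61, with adjusted p-values of 0.6073, 0.5795 and 0.6324. Slc7a11 was at 0.65 ± 0.20 (adjusted p = 0.5795), with means of 5.08, 5.11, 5.19 and 5.87 in the same groups.

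**Figure D5:**
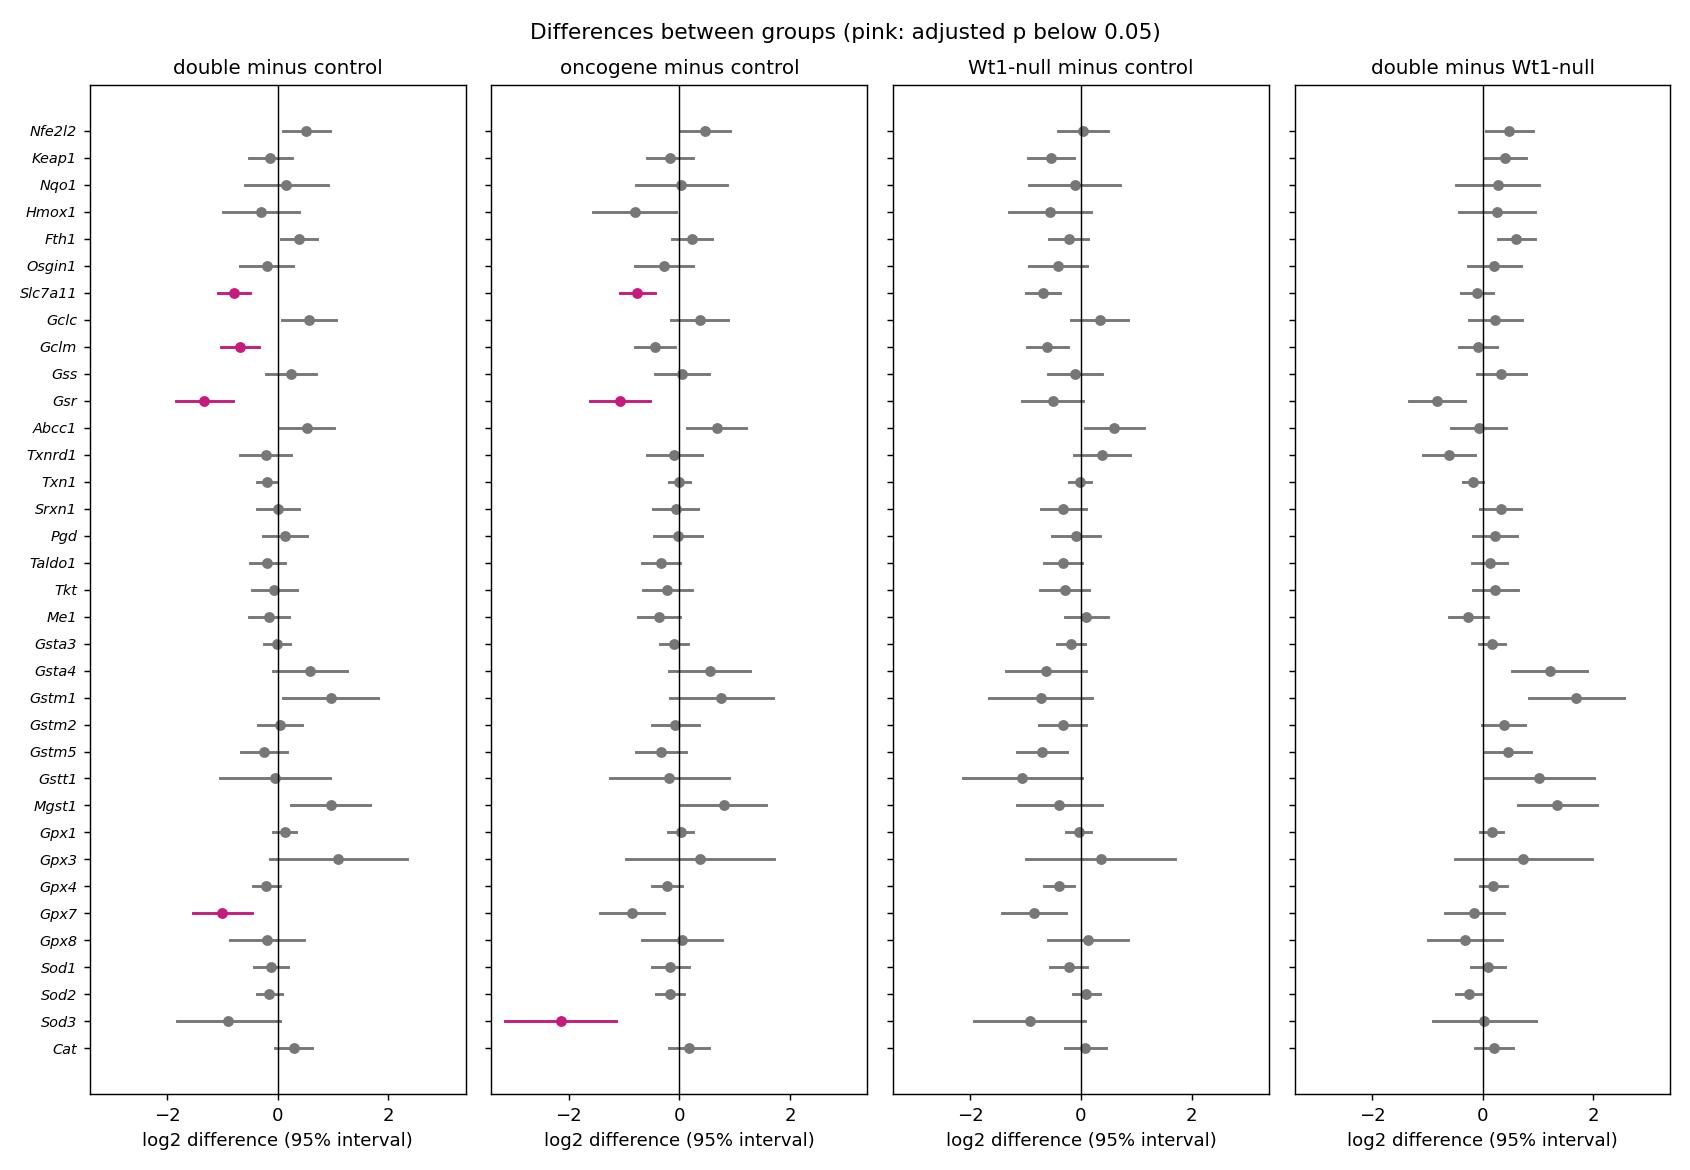
Log2 difference with its 95% interval for each of the 35 genes in 4 panels, one per comparison, with genes by role and colour for an adjusted p below 0.05. The coloured points are Slc7a11, Gsr, Gclm and Gpx7 for double against control and Slc7a11, Gsr and Sod3 for oncogene against control, all to the left of 0.

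Of 53 further genes of the same pathways, 7 were called in double MEFs against the control (2 higher and 5 lower), 3 in oncogene MEFs (all lower) and 1 in Wt1-null MEFs (lower). These were 13.2%, 5.66% and 1.89% of the 53, beside 5.93%, 2.04% and 0.104% of all genes called. Called lower were 2.45%, 0.72% and 0.0715% of all genes. The gene of the 53 with the smallest p in each comparison was Chac1, an enzyme that degrades glutathione, which fell by 2.70 ± 0.34 in double, 2.65 ± 0.37 in oncogene and 2.32 ± 0.37 in Wt1-null MEFs (limma adjusted p = 0.0001565, 0.0008849 and 0.01858). Prdx3, the mitochondrial peroxiredoxin, fell by 0.61 ± 0.12 in double and 0.64 ± 0.13 in oncogene MEFs (adjusted p = 0.0061 and 0.0153). Blvra, biliverdin reductase, which acts after haem oxygenase, fell by 0.85 ± 0.16 in double MEFs (adjusted p = 0.004081). Msrb1, a methionine sulfoxide reductase, fell by 0.83 ± 0.19 in oncogene and 0.81 ± 0.17 in double MEFs (limma adjusted p = 0.02205 and 0.008055).

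Chac1 and Slc7a11 are both known targets of ATF4, and the amino acid stress genes lay low in the same groups. All 18 genes of that list, which shares Chac1, Slc3a2 and Sesn2 with the further pathway genes, lay below the control in double, oncogene and Wt1-null MEFs, of which 15, 9 and 4 were called lower, with medians of -1.28, -1.23 and -0.98. Of all genes 2.45%, 0.72% and 0.0715% were called lower, with medians of -0.02, -0.03 and -0.05. Between double and oncogene MEFs limma called 0 of the 18, with 2 at an unadjusted p below 0.05, and between double and Wt1-null MEFs 0, with 5. Of all genes 0% and 0.0824% were called, and 3.09% and 14.8% had such an unadjusted p. The part of this response in the Slc7a11 values was not tested.

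The mean of the 35 genes on each array summarises the whole set. It was 10.64 ± 0.16 in double MEFs (SD, n = 7), 10.53 ± 0.18 in oncogene MEFs, 10.39 ± 0.20 in Wt1-null MEFs and 10.65 ± 0.09 in control MEFs (n = 5 each). The double arrays ran from 10.44 to 10.97, the oncogene arrays from 10.28 to 10.75, the Wt1-null arrays from 10.22 to 10.66 and the control arrays from 10.55 to 10.76, so all groups overlapped. Wt1-null replicates 3, 4 and 5 had the 3 lowest means of all arrays, 10.26, 10.26 and 10.22, and Wt1-null replicates 1 and 2 were at 10.56 and 10.66. Double replicate 1 had the highest mean, 10.97, and was the highest of all 22 arrays at 8 of the 35 genes. The genes also scattered most among the double arrays, where the median SD was 0.438, beside 0.325 in oncogene, 0.33 in Wt1-null and 0.215 in control MEFs. Over all genes the median SD was 0.291, 0.245, 0.2 and 0.178 in the same groups.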

How the data were processed

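RNA of 22 MEF samples was hybridised to Affymetrix mouse 430 2.0 arrays. The authors deposited log2 values. Per the submitters' processing notes they used Affymetrix Expression Console and the RMA method, and its version is not given in the sources used here. RMA subtracts background, gives all arrays a common distribution and summarises each probe set, so a change shared by most transcripts would be hidden and differences of dim genes are compressed. Deposited values ran from 3.29 to 15.14 and array medians from 6.23 to 6.33. Detection calls and scanner files were not used here, and precision is limited by how many arrays each group has. The series' design lists 6 arrays for the oncogene group, and 5 were analysed here. The oncogene is not reported here by name.

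Of 45101 probe sets, the platform annotation names 1 gene for 34945, several for 932 and none for 9160, and 64 are controls; 34741 matched RefSeq genes of GRCm38.p6 by gene ID. Each of 18193 genes was read at its brightest probe set; 12 members have 1 probe set and 23 several. Group means were fitted over all 22 arrays with limma 3.58.1 in R 4.3.3 (lmFit and eBayes, no covariate), and p-values were adjusted by Benjamini-Hochberg over all genes. Since separate cultures are not stated, p-values reflect only the array-to-array spread, which may be technical. The scripts were tested on simulated data.

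The members, roles and lists were chosen with earlier results of these data known. Array values (for the 7 double arrays mostly the lowest, median and highest) were given for members called in at least 1 comparison and for the 4 largest changes of each comparison. For the transferases Gstm1, Gstt1, Mgst1 and Gsta4 they were given in some of the groups only. Other members given with array values, such as Nfe2l2 and Fth1, were chosen after their values were seen. Up to 3 called genes with the smallest p were named from the other pathway genes. Same-numbered replicates did not all deviate together: over 28 pairs the median correlation of deviations was 0.06 (-0.44 to 0.78), with 12 above 0.1, so the numbers were not used as pairs in the tests reported. Alternatives changed the probe set rule, the tests' gene set, the normalization, the variance model, array weights, the groups fitted, blocks for replicate number and accession set, an Xist covariate and the arrays kept. Fits within 1 accession set, and without Wt1-null replicate 2 with replicates 3 and 4 averaged, were added after seeing the data.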

Additional observations from a re-analysis of the deposited data

Results flagged for a closer look

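Within groups, 12 of 144 sets of values held 1 array that lay far from the others by Dixon's test, which chance alone would give for about 1 set in 20. Double replicate 1 had a member mean of 10.97 with the next double array at 10.64, and its Gpx4 level was 13.73 with the next at 13.34. Double replicate 3 had Sod3 at 6.5 with the nearest double array at 9.04, and double replicate 4 had Gpx8 at 10.41 with the nearest at 12.37. Double replicate 6 had Hmox1 at 9.39 with the nearest at 10.05. Oncogene replicate 4 stood apart at 3 genes: Keap1 at 10.41 (nearest 9.75), Gstm1 at 11.56 (nearest 10.07) and Gpx8 at 11.35 (nearest 12.65). Oncogene replicate 3 had Gsta3, a dim transferase, at 5.14 with the nearest at 4.55. Wt1-null replicate 2 stood apart at 3 genes as well: Nfe2l2 at 11.997 (nearest 11.04), Gclc at 10.36 (nearest 9.28) and Mgst1 at 12.71 (nearest 10.9).

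Double replicate 2, the array nearest to Wt1-null replicate 2 over all probe sets, had 12.07 for Nfe2l2, 10.29 for Gclc and 12.69 for Mgst1. The reason for this closeness was not tested. No member's interaction passed the threshold with all arrays kept.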

How the results depend on the processing

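No called change reversed under any alternative, and the falls of Slc7a11, Gsr and Gclm in double MEFs and of Slc7a11 in oncogene MEFs kept their call in all 22 fits that left out 1 array. Leaving out 1 array gave 3 to 6 members called for double against control, 1 to 3 for oncogene against control (1 without oncogene replicate 3, 5 or 6 or control replicate 2 or 3, where the call was Slc7a11), 0 to 1 for Wt1-null against control (1 without Wt1-null replicate 1 or double replicate 1), 0 to 0 for double against oncogene, 0 to 6 for double against Wt1-null (6 without Wt1-null replicate 2) and 0 to 1 for the interaction (Sod3, without double replicate 3). Of all genes these fits called 3.12% to 9.5% for double, 0.764% to 3.75% for oncogene and 0.011% to 0.665% for Wt1-null against control. They called 0% for double against oncogene, 0% to 5.08% for double against Wt1-null and 0% to 0.0275% for the interaction. The call of Gsr in oncogene MEFs was lost in 8 of these 22 fits, that of Sod3 in 5 and that of Gpx7 in double MEFs in 4. With each gene averaged over its probe sets, 1 member was called for oncogene against control (Sod3), Gclm lost its call in double MEFs, and the member mean was 9.80 in double, 9.69 in oncogene, 9.60 in Wt1-null and 9.82 in control MEFs. Of all genes 1.48% were called for oncogene against control in that fit. Array weights gave 3.35 and 3.42 to the near-identical Wt1-null replicates 3 and 4. With these weights 13 members were called for double against control and 14 for oncogene against control, beside 33.2% and 24.3% of all genes. For Wt1-null against control 20 were called, and 11 for double against Wt1-null, beside 33.1% and 19.2% of all genes. For the interaction 12 members were called, where 2748 of all 18193 genes were. A fit of only the groups compared called 5 for oncogene against control and 3 for Wt1-null against control, where 4.23% and 3.29% of all genes were called; it was not run for the interaction. Without both double replicate 2 and Wt1-null replicate 2, 5 were called for double against Wt1-null, and 3 without Wt1-null replicate 2 and with replicates 3 and 4 averaged. Of all genes 3.69% and 1.95% were called in these fits. Sod3 in oncogene MEFs lost its call with the replicate block (-2.12, limma adjusted p = 0.06447), with an Xist covariate (adjusted p = 0.05073) and within 1 accession set (adjusted p = 0.06119). With the replicate block Gpx7 was called in oncogene MEFs in place of Sod3, so that the counts stayed at 4 for double against control and 3 for oncogene against control, and no other member's call changed. Of all genes 6.24% and 1.69% were called with that block. Same-numbered arrays shared deviations in part: the correlations between double and oncogene arrays of 1 number were 0.11, 0.21, 0.78, -0.08 and 0.58 for numbers 1, 3, 4, 5 and 6, while 16 of all 28 pairs did not exceed 0.1. Gpx7 in double MEFs lost its call with the accession set as a fixed block (adjusted p = 0.0514) and within 1 set (adjusted p = 0.05057), and Gsr in oncogene MEFs with every probe set tested (adjusted p = 0.05131). Within the 15 arrays of 1 accession set, 4 members were called for double against control, 2 for oncogene against control and 0 for double against oncogene. Of all genes 4.37%, 1.7% and 0% were called there. The causes of these changes were not tested. A filter on dim genes left Slc7a11 untested, and the double and Wt1-null groups share no accession set.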
